A study of Mus musculus with 24 samples.

Results

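The 10 zonation markers described here are genes known to be expressed more around the central vein or around the portal vein of the liver lobule. They were chosen by name, with earlier results of these data known. Of the 10, 8 had a row under their symbol in the annotation of the array, out of 24704 named genes, and 2 further periportal markers were not analysed here. The 8 were the 6 pericentral markers Glul, Cyp2e1, Cyp1a2, Oat, Axin2 and Lgr5 and the 2 periportal markers Hal and Cyp2f2. Total RNA of whole liver was measured on 24 arrays, with 3 in each of 8 groups set by genotype, diet and sex. HepCAV1ko mice carried floxed Cav1 alleles and a heterozygous Cre recombinase under the albumin promoter. This Cre is meant to delete Cav1, the gene of caveolin-1, in hepatocytes. HepCAV1wt mice carried the floxed alleles too and were negative for Cre. From 8 weeks of age, after regular chow, the mice ate a diet without methionine and choline (MCD) or a control diet that holds both, and RNA was taken 4 weeks later, at 12 weeks. The groups were MCD-fed and control-fed HepCAV1ko males, MCD-fed and control-fed HepCAV1wt males, and the same 4 groups of females. The values are log2 expression, on which a difference of 1 is a 2-fold change.

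Blood enters the liver lobule at the portal vein and leaves at the central vein, and hepatocytes along that path share out their work. Wnt signals from endothelial cells of the central vein keep the pericentral programme active through beta-catenin, which includes glutamine synthesis and many cytochrome P450 enzymes. Periportal hepatocytes carry more of amino acid breakdown, urea synthesis and gluconeogenesis. The array measures the whole organ, so a shift of these genes could come from fewer cells of a zone or from less RNA per cell, which cannot be told apart in bulk liver.

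RefSeq annotation of GRCm38.p6 places the 8 markers on chromosomes 1, 7, 9, 10 and 11. Glul (gene ID 14645, the number that names its feature in the table) lies at chr1:153899929-153909723 and Axin2 (12006) at chr11:108917828-108950783. Cyp1a2 (13077) lies at chr9:57676937-57683655 and Hal (15109) at chr10:93488768-93516761. Oat (18242), Cyp2e1 (13106) and Cyp2f2 (13107) lie on chromosome 7, and Lgr5 (14160) lies on chromosome 10.

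The promoters of 4 markers that passed the diet test below are shown because beta-catenin acts through TCF/LEF factors, and the sequences let their core letters be seen at a target of the pathway (Axin2), at pericentral enzymes (Glul and Cyp1a2) and at a periportal enzyme (Hal). Each run is the sense strand from 250 bases before to 50 bases after the start site in the RefSeq table of GRCm38.p6, at chr1:153899679-153899978 for Glul, chr11:108920099-108920398 for Axin2, chr9:57683606-57683905 on the minus strand for Cyp1a2 and chr10:93488518-93488817 for Hal. The start site used for Axin2 lies inside the annotated span of the gene. Capitals mark the TCF/LEF cores CTTTGA and CTTTGT and the TATA box letters TATAAA. Both strands were searched, so a match on the other strand reads as the reverse complement.
Glul: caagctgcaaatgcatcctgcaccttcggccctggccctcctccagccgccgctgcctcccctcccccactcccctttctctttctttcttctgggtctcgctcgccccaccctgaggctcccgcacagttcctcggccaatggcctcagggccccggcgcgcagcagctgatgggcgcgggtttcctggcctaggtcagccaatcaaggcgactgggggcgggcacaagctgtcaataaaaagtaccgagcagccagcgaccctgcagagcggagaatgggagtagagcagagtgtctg
Axin2: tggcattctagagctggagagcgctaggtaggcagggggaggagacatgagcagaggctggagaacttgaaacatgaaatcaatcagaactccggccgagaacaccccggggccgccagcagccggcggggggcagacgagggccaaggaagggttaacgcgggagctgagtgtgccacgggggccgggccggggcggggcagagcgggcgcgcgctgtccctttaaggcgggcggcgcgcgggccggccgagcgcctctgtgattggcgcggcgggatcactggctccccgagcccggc
Cyp1a2: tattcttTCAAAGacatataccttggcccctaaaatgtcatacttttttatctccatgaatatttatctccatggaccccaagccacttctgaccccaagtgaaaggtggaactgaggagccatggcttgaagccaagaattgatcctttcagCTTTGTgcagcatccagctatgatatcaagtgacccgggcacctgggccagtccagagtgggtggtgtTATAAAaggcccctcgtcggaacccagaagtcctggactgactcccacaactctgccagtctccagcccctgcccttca
Hal: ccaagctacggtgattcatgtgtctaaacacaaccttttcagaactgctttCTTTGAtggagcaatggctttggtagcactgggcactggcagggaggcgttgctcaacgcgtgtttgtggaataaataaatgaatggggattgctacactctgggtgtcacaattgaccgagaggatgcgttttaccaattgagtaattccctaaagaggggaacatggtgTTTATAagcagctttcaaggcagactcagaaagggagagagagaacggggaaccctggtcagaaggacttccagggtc

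Of the 8 markers, 7 matched a promoter in the table, and Lgr5 was the exception. Either TCF/LEF core was found in 3 of the 7 promoters, beside 31.2% of the 32851 promoters of the same length in the table. Cyp1a2 held CTTTGA on the other strand at position -243 and CTTTGT at -97, counted from the start site. Hal held CTTTGA at -199 and Cyp2e1 at -135, so the letters stood at 1 periportal and 2 pericentral markers. The promoters of Glul, Axin2, Oat and Cyp2f2 held neither core in this window. TATAAA was found in 3 of 7 (13.6% of all promoters), at -31 in Cyp2e1, at -29 in Cyp1a2 and, on the other strand, at -28 in Hal. GCGTG, the core bound by the aryl hydrocarbon receptor with its partner ARNT, was found in 1 of 7, Hal at -141 (32.4% of all promoters). GTTAAT, searched for the hepatocyte factor HNF1, was found in 0 of 7 (7.1%). None of these matches overlapped another, and each is a description of letters only.

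The levels of hepatocyte markers and of Cav1 were described first. Of 8 hepatocyte markers, 8 lay above the median of all genes (3.83 on the log2 scale) in every group. So did 8 of 8 markers of sinusoidal endothelium, so this threshold cannot tell cell types apart. Pairs of arrays from the same group had an r between 0.981 and 0.991. Cav1 itself was near that median in every group and averaged 3.76 ± 0.25 in control-fed HepCAV1ko males against 4.42 ± 0.55 in control-fed HepCAV1wt males (SD, n = 3 each), a log2 fold change of -0.65 (limma adjusted p = 0.792). In control-fed females it averaged 3.94 ± 0.16 in HepCAV1ko and 4.39 ± 0.48 in HepCAV1wt mice (-0.45, adjusted p = 0.916). On the MCD diet the genotypes hardly differed, with 4.17 ± 0.20 in HepCAV1ko and 4.22 ± 0.20 in HepCAV1wt males (-0.05, adjusted p = 1) and 4.12 ± 0.18 in HepCAV1ko and 4.21 ± 0.23 in HepCAV1wt females (-0.08, adjusted p = 0.999). Averaged over diet and sex the difference was -0.31 (adjusted p = 0.957), so Cav1 did not pass in any of the 5 comparisons. Whole liver also holds cells other than hepatocytes, and their part in these values was not tested.

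The first comparison asked whether the MCD diet shifted the markers, over both genotypes and both sexes. The 4 pericentral markers Glul, Axin2, Oat and Cyp1a2 rose on the MCD diet, the periportal marker Hal fell, and Cyp2e1, Lgr5 and Cyp2f2 did not pass. That is 5 of 8 markers at an adjusted p under 0.05, beside 19.2% of all 24704 genes, with 4 higher (9.79% of all genes) and 1 lower (9.39% of all genes). The test was limma with 1 mean for each of the 8 groups over all 24 arrays and Benjamini-Hochberg adjustment over all genes. The markers' log2 fold changes ran between -0.28 and 0.50 with a median of 0.28, against a median of -0.01 over all genes. At an unadjusted p under 0.05 the count was 6 of 8 (29.6% of all genes). For 0 of 8 markers did the 12 MCD arrays lie apart from the 12 control arrays (1.29% of all genes).

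The same diet comparison within each genotype and sex gave fewer calls, with 3 arrays against 3. In HepCAV1ko males 2 markers were higher (Glul and Axin2) and 0 lower, beside 3.62% of all genes called higher and 3.02% lower (6.64% together). In HepCAV1wt males 1 was higher (Axin2) and 0 lower, beside 2.28% and 2.09% (4.37% together). In HepCAV1ko females 0 passed in limma, beside 1.64% of all genes, with 1 marker at an unadjusted p under 0.05 (11.5% of all genes). In HepCAV1wt females 1 was lower (Hal) and 0 higher, beside 2.34% and 2.59% (4.92% together). MCD and control arrays stood apart for 3 markers in HepCAV1ko males (23.3% of all genes), 4 in HepCAV1wt males (20.7%), 2 in HepCAV1ko females (16.5%) and 4 in HepCAV1wt females (20.7%).

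**Figure D1:**
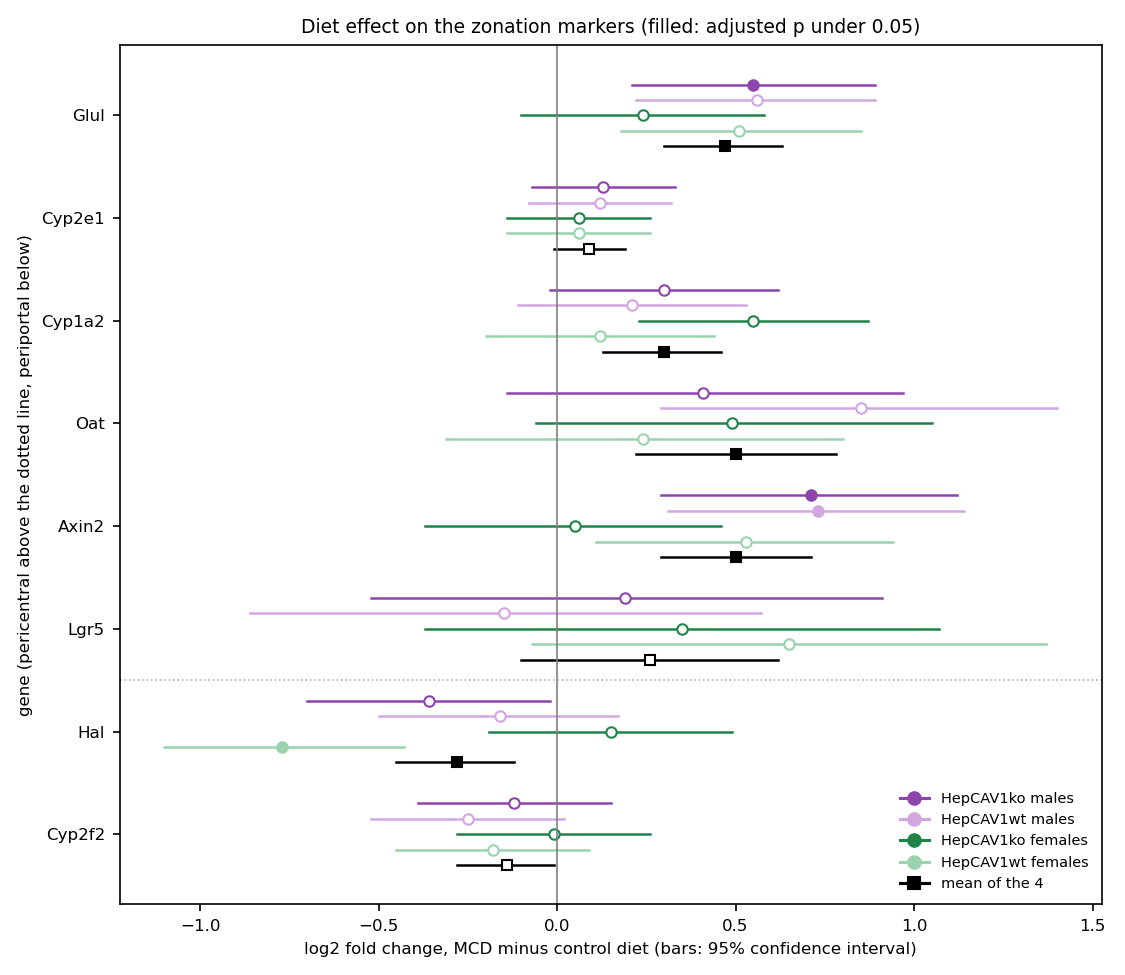
Log2 fold change (MCD minus control diet, horizontal axis) of the 8 markers (rows) in each genotype and sex and as the mean of the 4 comparisons (black squares), with 95% confidence intervals and filled symbols at an adjusted p under 0.05. The mean squares of the 6 pericentral markers lie between 0.09 and 0.50, and those of the periportal Hal and Cyp2f2 at -0.28 and -0.14.

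Glul encodes glutamine synthetase, which captures ammonia as glutamine in the last hepatocytes before the central vein. In HepCAV1ko males it measured 12.17, 12.28 and 12.23 on the MCD diet, against 11.78, 11.72 and 11.53 on the control diet. In HepCAV1wt males it measured 12.24, 12.37 and 12.12 on the MCD diet, against 11.68, 11.44 and 11.93 on the control diet. Every MCD array of the males read above every control array of the males. In HepCAV1ko females it measured 12.21, 12.17 and 11.76 on the MCD diet, against 11.81, 11.76 and 11.84 on the control diet, and the third MCD array read as low as the controls. In HepCAV1wt females it measured 12.64, 11.99 and 12.12 on the MCD diet, against 11.88, 11.82 and 11.49 on the control diet, with no overlap. Averaged over genotype and sex Glul rose by 0.47 (SE 0.08, adjusted p = 2.1e-04), a 1.38-fold change. Its 4 MCD group means all stood above its 4 control group means, and the largest step in that order, 0.24, lay between control-fed and MCD-fed HepCAV1ko females, beside a within-group SD of 0.20. The other neighbouring means differed by at most 0.18, less than that spread. The log2 fold change was 0.55 in HepCAV1ko males (adjusted p = 0.045) and 0.56 in HepCAV1wt males (adjusted p = 0.0544), so the threshold fell between values that hardly differ. The call in HepCAV1ko males was lost without any 1 of its 6 arrays (adjusted p between 0.0638 and 0.17), and Glul passed in HepCAV1wt males without control replicate 3 (0.68, adjusted p = 0.0364) and in HepCAV1wt females without MCD replicate 2 (0.64, adjusted p = 0.0441).

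Axin2 is a feedback inhibitor that Wnt signalling through beta-catenin switches on, and it is widely read as a target of the pathway. In HepCAV1ko males it measured 6.08, 5.94 and 5.77 on the MCD diet, against 4.99, 5.35 and 5.33 on the control diet. In HepCAV1wt males it measured 5.92, 6.19 and 5.55 on the MCD diet, against 4.75, 5.33 and 5.41 on the control diet. The diets did not overlap in males of either genotype. In HepCAV1ko females it measured 5.65, 5.89 and 5.67 on the MCD diet, against 5.95, 5.46 and 5.67 on the control diet. In HepCAV1wt females it measured 6.13, 5.75 and 5.94 on the MCD diet, against 5.02, 5.54 and 5.68 on the control diet. The arrays of HepCAV1ko females were thus mixed between diets, while those of HepCAV1wt females were apart. Over all arrays Axin2 rose by 0.50 (SE 0.10, adjusted p = 8.2e-04), with 0.71 in HepCAV1ko males (adjusted p = 0.0353), 0.73 in HepCAV1wt males (adjusted p = 0.0405), 0.05 in HepCAV1ko females (adjusted p = 0.974) and 0.53 in HepCAV1wt females (adjusted p = 0.152). The diet effect in males minus that in females was 0.43 (unadjusted p = 0.0434, adjusted p = 0.569), which did not pass. The call in HepCAV1ko males was lost without any of 5 arrays, all but MCD replicate 3 (adjusted p between 0.0523 and 0.143). The call in HepCAV1wt males was lost without control replicate 1 or 2 or MCD replicate 1 or 2 (adjusted p between 0.0614 and 0.232).

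Oat encodes ornithine aminotransferase, a mitochondrial enzyme that feeds ornithine towards glutamate in pericentral cells. In HepCAV1ko males it measured 11.20, 11.19 and 11.21 on the MCD diet, against 11.08, 10.73 and 10.55 on the control diet. In HepCAV1wt males it measured 11.50, 11.34 and 11.25 on the MCD diet, against 10.85, 9.79 and 10.91 on the control diet. The control-fed HepCAV1wt male replicate 2, at 9.79, was the lowest of all 24 arrays. In HepCAV1ko females it measured 11.58, 11.74 and 11.28 on the MCD diet, against 11.04, 11.44 and 10.64 on the control diet. In HepCAV1wt females it measured 11.61, 10.86 and 11.55 on the MCD diet, against 10.68, 11.50 and 11.11 on the control diet. The diets overlapped in both groups of females and were apart in both groups of males. Oat rose by 0.50 over all arrays (SE 0.13, adjusted p = 0.0103), and in 0 of the 4 single comparisons did it pass. Its within-group SD was 0.36, and no step between neighbouring group means (at most 0.27) exceeded it. In HepCAV1wt males its log2 fold change of 0.85 (adjusted p = 0.0805) fell to 0.48 when control replicate 2 was left out.

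Cyp1a2 is a cytochrome P450 that oxidises caffeine and aromatic amines and responds to the aryl hydrocarbon receptor. In HepCAV1ko males it measured 11.50, 11.69 and 11.75 on the MCD diet, against 11.37, 11.52 and 11.15 on the control diet. In HepCAV1wt males it measured 11.54, 11.74 and 11.56 on the MCD diet, against 11.40, 11.29 and 11.54 on the control diet. In males the lowest MCD arrays met the highest control arrays. In HepCAV1ko females it measured 11.46, 11.49 and 11.33 on the MCD diet, against 11.21, 10.75 and 10.66 on the control diet. In HepCAV1wt females it measured 11.61, 11.01 and 11.51 on the MCD diet, against 11.31, 11.22 and 11.23 on the control diet. The control-fed HepCAV1ko females had the lowest group mean, 0.38 below the next, where the within-group SD was 0.19. Cyp1a2 rose by 0.30 over all arrays (SE 0.08, adjusted p = 0.00849). The change was 0.55 in HepCAV1ko females (adjusted p = 0.0806), and without control replicate 1 of that group it passed (0.72, adjusted p = 0.0218). Its close relative Cyp1a1 is similar in sequence, and how far their probes read both was not tested.

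Hal encodes histidine ammonia lyase, which starts the breakdown of histidine in periportal hepatocytes. In HepCAV1ko males it measured 9.94, 10.03 and 10.36 on the MCD diet, against 10.14, 10.68 and 10.58 on the control diet. In HepCAV1wt males it measured 10.33, 10.66 and 10.21 on the MCD diet, against 10.43, 10.58 and 10.68 on the control diet. The diets overlapped in males of both genotypes. In HepCAV1ko females it measured 10.70, 10.53 and 10.85 on the MCD diet, against 10.78, 10.51 and 10.33 on the control diet. In HepCAV1wt females it measured 9.84, 10.23 and 10.19 on the MCD diet, against 10.91, 10.79 and 10.85 on the control diet. The 2 female genotypes stood opposite each other, with the MCD arrays far below the controls in HepCAV1wt females and mixed with them in HepCAV1ko females. Hal fell by 0.28 over all arrays (SE 0.08, adjusted p = 0.0157), and in HepCAV1wt females it fell by 0.77 (SE 0.16, adjusted p = 0.00706). In HepCAV1ko females its log2 fold change was 0.15 (adjusted p = 0.841). The difference between those diet effects, HepCAV1ko minus HepCAV1wt in females, was 0.92 (95% confidence interval 0.44 to 1.40, unadjusted p = 6.4e-04, adjusted p = 1), a comparison added after these values were seen. The call in HepCAV1wt females was lost without MCD replicate 1 (-0.65, adjusted p = 0.0593).

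Cyp2e1, Lgr5 and Cyp2f2 did not pass in the averaged comparison or in any of the 4 single ones. Cyp2e1, the ethanol-oxidising cytochrome P450, ran between 13.04 and 13.20 (median 13.14) on the MCD diet and between 12.85 and 13.20 (median 13.04) on the control diet, with a log2 fold change of 0.09 (adjusted p = 0.217). It ranked between 4 and 12 among all genes in every array and took 8 distinct values at 2 decimals. How far a change can show this near the top of the scale was not tested, so the missing call does not show an unchanged gene. Lgr5, a receptor for R-spondins that marks cells next to the central vein, had a median of 5.75 and a highest value of 6.21 on the MCD diet and a median of 5.38 and a highest value of 6.59 on the control diet, with a log2 fold change of 0.26 (95% confidence interval -0.10 to 0.62, adjusted p = 0.347). Its within-group SD of 0.47 was the largest of the 8 markers, and control-fed HepCAV1wt males alone read 5.35, 4.79 and 6.59. Cyp2f2, a periportal cytochrome P450, averaged 12.19 on the MCD diet and 12.33 on the control diet, with a log2 fold change of -0.14 (adjusted p = 0.147). Without control-fed HepCAV1ko male replicate 3 it passed, at -0.18 (adjusted p = 0.0363).

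**Figure D2:**
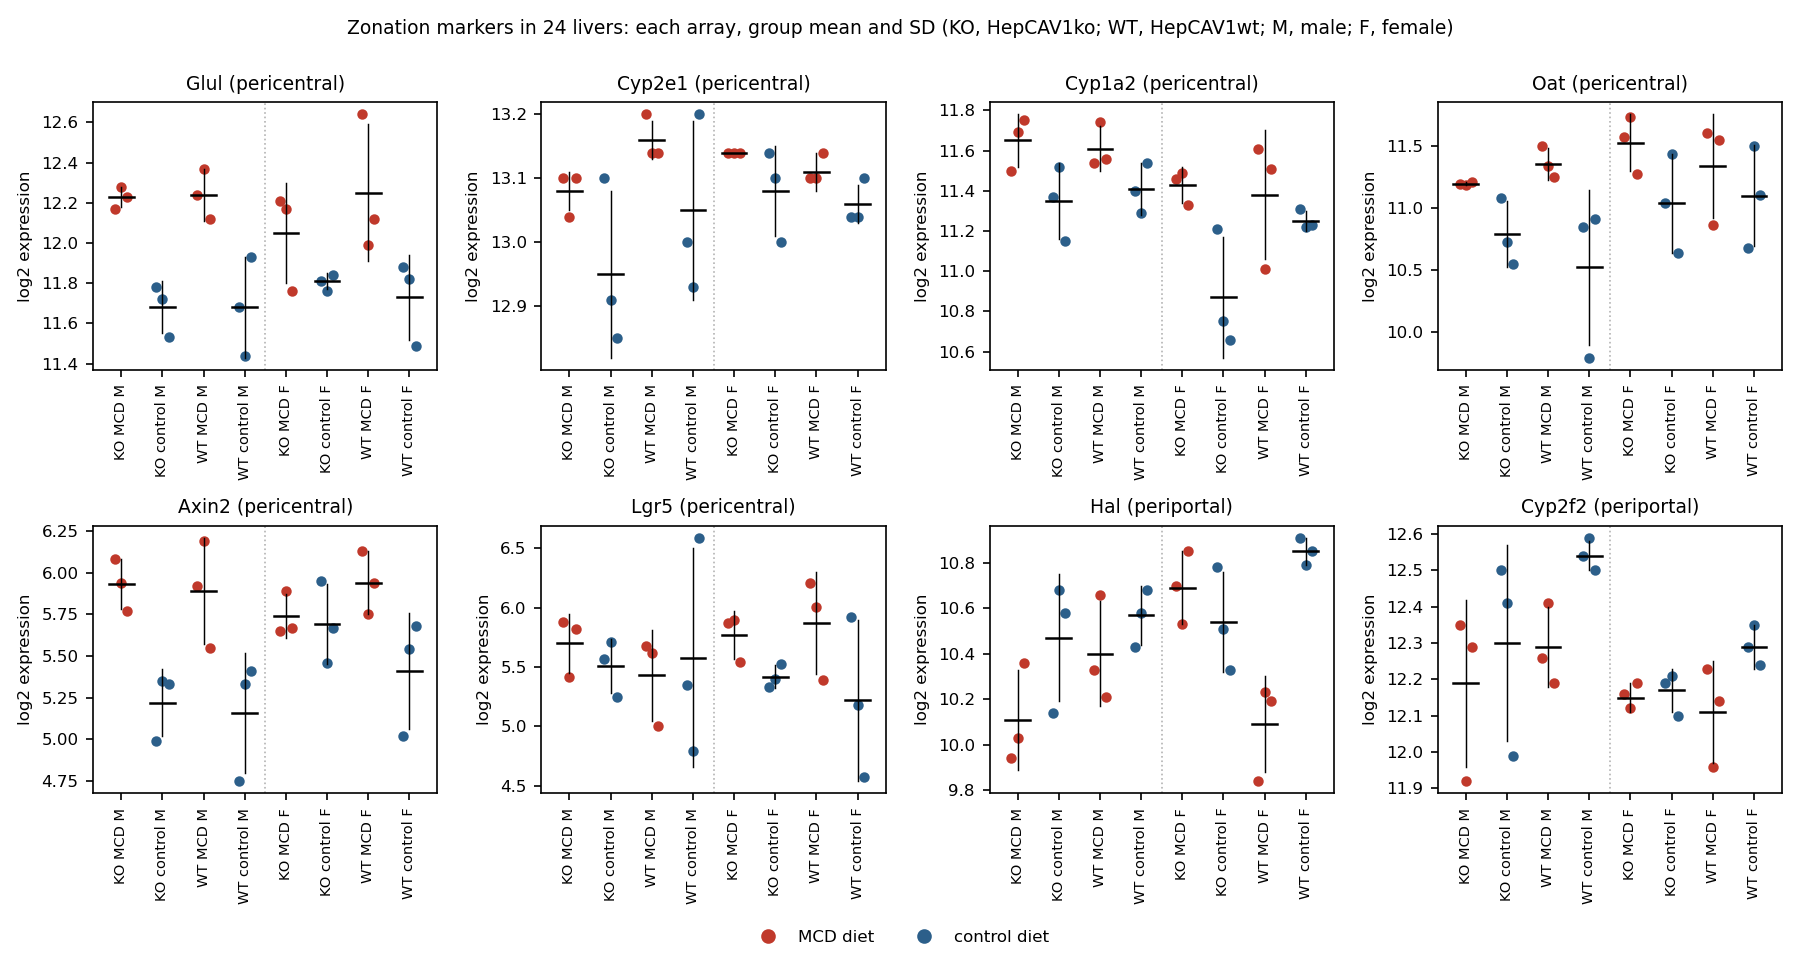
Log2 expression (vertical axis) of the 8 markers in the 8 groups (horizontal axis), with a point for each array, a line at the group mean and a bar of 1 SD, MCD in red and control in blue. The Glul points of MCD-fed males start at 12.12, above the control-fed males, which end at 11.93.

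The distance between the zones was then described on each array as the mean of the 6 pericentral markers minus the mean of the 2 periportal markers, each centred on its mean over the 24 arrays. On the MCD diet it ran between -0.15 and 0.76 with a median of 0.28 and was above 0 in 11 of 12 arrays. On the control diet it ran between -0.75 and -0.08 with a median of -0.27 and was above 0 in 0 of 12. The exception was an MCD-fed HepCAV1ko female (replicate 3). Group means on the MCD diet were 0.39 ± 0.15 in HepCAV1ko males, 0.18 ± 0.10 in HepCAV1wt males, 0.10 ± 0.23 in HepCAV1ko females and 0.46 ± 0.26 in HepCAV1wt females (SD, n = 3 each). On the control diet they were -0.23 ± 0.11 in HepCAV1ko males, -0.41 ± 0.33 in HepCAV1wt males, -0.12 ± 0.04 in HepCAV1ko females and -0.37 ± 0.08 in HepCAV1wt females. The mean of the pericentral markers ran between -0.01 and 0.43 on the MCD diet and between -0.52 and 0.15 on the control diet. The mean of the periportal markers ran between -0.38 and 0.18 on the MCD diet and between -0.15 and 0.24 on the control diet. This is the same movement as in the single markers, so it carries no test of its own.

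**Figure D3:**
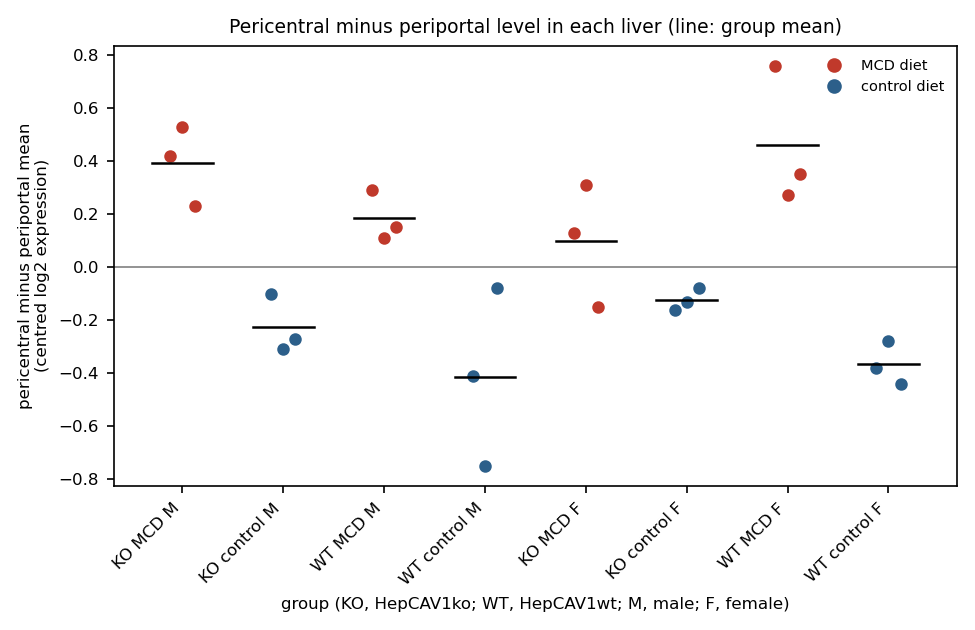
Mean centred log2 expression of the 6 pericentral markers minus that of the 2 periportal markers (vertical axis) on each of 24 liver arrays by group (horizontal axis), with a line at each group mean. Of the 12 MCD arrays 11 lie above 0, and the 12 control arrays lie at or below -0.08.

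The second comparison asked whether the hepatocyte deletion of Cav1 moved the markers. In 0 of 32 tests (8 markers in 4 combinations of diet and sex) did HepCAV1ko and HepCAV1wt differ, with limma adjusted p-values between 0.882 and 1, and 2 tests reached an unadjusted p under 0.05. Over all genes, 0.00405% were called in control-fed males and 0% in each of the other 3 combinations, and at an unadjusted p under 0.05 the shares were 5.48% in control-fed males, 5.57% in control-fed females, 4.23% in MCD-fed males and 3.92% in MCD-fed females. Averaged over diet and sex 0 of 8 passed (0.00405% of all genes; 0 at an unadjusted p under 0.05, beside 4.99%), and the differences ran between -0.11 (Cyp2f2, 95% confidence interval -0.24 to 0.03) and 0.07 (Lgr5, -0.29 to 0.43). The 2 unadjusted results were Cyp1a2 in control-fed females (-0.38, unadjusted p = 0.0231, adjusted p = 0.882) and Hal in MCD-fed females (0.60, unadjusted p = 0.00124, adjusted p = 0.999). For Hal the 3 MCD-fed HepCAV1ko females all read above the 3 MCD-fed HepCAV1wt females. The groups did not overlap for 0 markers in control-fed males (10.6% of all genes), 3 in control-fed females (9.03%), 2 in MCD-fed males (7.88%) and 1 in MCD-fed females (10.2%). The diet effect in HepCAV1ko minus that in HepCAV1wt, averaged over sex, passed for 0 of 8 (0% of all genes; 1 at an unadjusted p under 0.05, beside 3.30%), with Hal farthest from 0 at 0.36 (adjusted p = 1).

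The third comparison set males against females. In 0 of 32 tests did a marker pass (adjusted p between 0.175 and 1), and 4 reached an unadjusted p under 0.05. In control-fed HepCAV1ko mice these were Cyp1a2 (0.47, limma unadjusted p = 0.00601) and Axin2 (-0.47, unadjusted p = 0.0282). The others were Oat in control-fed HepCAV1wt mice (-0.58, unadjusted p = 0.0417) and Hal in MCD-fed HepCAV1ko mice (-0.58, unadjusted p = 0.00176, adjusted p = 0.264). Over all genes 1.48% were called in control-fed HepCAV1ko, 1.27% in control-fed HepCAV1wt, 0.202% in MCD-fed HepCAV1ko and 0.215% in MCD-fed HepCAV1wt mice. At an unadjusted p under 0.05 the shares were 11.5% in control-fed HepCAV1ko, 11.4% in control-fed HepCAV1wt, 5.77% in MCD-fed HepCAV1ko and 7.74% in MCD-fed HepCAV1wt mice. Males and females did not overlap for 1 marker in control-fed HepCAV1ko (15.6% of all genes) and 2 in control-fed HepCAV1wt mice (16.5%). On the MCD diet they did not overlap for 4 markers in HepCAV1ko (11.6%) and 0 in HepCAV1wt mice (11.5%). Averaged over genotype and diet 0 of 8 passed, beside 3.67% of all genes, and 3 reached an unadjusted p under 0.05 (15.2% of all genes). Cyp1a2 ran between 11.15 and 11.75 (median 11.53) in males and between 10.66 and 11.61 (median 11.27) in females, a difference of 0.27 that missed the threshold (adjusted p = 0.0548) and was positive in 4 of 4 combinations. It passed without control-fed HepCAV1ko male replicate 3, control-fed HepCAV1ko female replicate 1 or MCD-fed HepCAV1wt female replicate 1, at 0.30 to 0.31 (adjusted p between 0.0154 and 0.0405), and in control-fed HepCAV1ko mice without female replicate 1 (0.64, adjusted p = 0.0428). Cyp2f2 differed by 0.15 (adjusted p = 0.265, positive in 4 of 4) and Oat by -0.29 (adjusted p = 0.312). The diet effect in males minus that in females passed for 0 of 8 markers, beside 0.534% of all genes, and 1 marker (Axin2) reached an unadjusted p under 0.05 (8.48% of all genes).

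The markers were also compared with each other across the 24 arrays. Of 15 pairs of pericentral markers, 15 correlated above 0, between 0.17 and 0.68, with a median r of 0.47. With each group's mean removed, 15 of 15 were still above 0, between 0.01 and 0.71 and with a median of 0.31. The pair Glul and Lgr5 stood at 0.56 over all arrays and at 0.71 within groups, and Glul and Axin2 at 0.67 and 0.13. Of 12 pairs of a pericentral with a periportal marker, 1 was above 0 over all arrays (median -0.21) and 9 within groups (median 0.21). All of these values share the same 24 arrays and their normalization, and they are given as descriptions. The genes whose pattern over the 24 arrays was most like that of a marker, among genes above the median level, were Clec7a and Rhbdf1 for Glul (r = 0.88 each), Abcc3 (0.84) and Tlcd4 (0.79) for Cyp2e1, Tmed10 (0.89) and Eprs (0.82) for Cyp1a2, and Arhgap10 (0.82) and Lhpp (0.81) for Oat. They were Slc39a4 and Tnfrsf23 for Axin2 (0.85 each), AW554918 (0.73) and Synj2 (0.69) for Lgr5, Agxt (0.81) and Magix (0.79) for Hal, and Ugt2b1 (0.79) and Sec62 (0.78) for Cyp2f2.

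Other genes known for a zonated pattern were read in the averaged diet comparison by lists, beside 9.79% of all genes called higher and 9.39% lower. The lists here and below were chosen with earlier results of these data known, so their shares are descriptions and not independent support. Some genes stand in more than 1 list, so the lists are not separate observations. Ahr, for example, counts among the pericentral genes and in the aryl hydrocarbon receptor list. Of 21 other pericentral genes 17 were measured, and 9 rose (52.9%), 2 fell (11.8%, near the share of all genes) and 6 did not pass, with a median log2 fold change of 0.36 against -0.01 over all genes. Rhbg, an ammonia transporter, rose by 0.91 (adjusted p = 1.6e-04), running between 6.74 and 8.37 on the MCD diet and between 6.08 and 7.54 on the control diet. Lect2, a secreted target of beta-catenin in liver, rose by 0.85 (adjusted p = 7.4e-08), and its lowest MCD array (10.10) was above its highest control array (9.93). Aldh1a1, a retinaldehyde dehydrogenase, rose by 0.67 (adjusted p = 2.7e-06) with the diets likewise apart. Cyp27a1, a sterol hydroxylase of bile acid synthesis, fell by 0.72 (adjusted p = 2.7e-06).

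Of 22 other periportal genes, all measured, 4 rose (18.2%, beside 9.79% of all genes), 6 fell (27.3%, beside 9.39%) and 12 did not pass, with a median of -0.10. That average covers groups with medians of opposite sign. The median was -0.17 in HepCAV1ko males, 0.13 in HepCAV1wt males, 0.10 in HepCAV1ko females and -0.36 in HepCAV1wt females. The diet effect in HepCAV1ko minus that in HepCAV1wt females, a comparison added after values were seen, passed for 0 of the 22. It passed for 0% of all genes too, so this count is not particular to the list. Its median over the 22 was 0.30, against 0.01 over all genes, with 18 above 0 and 4 below. The largest changes among those that passed were rises, of Mfsd2a, a lysophospholipid transporter (1.74, adjusted p = 2.5e-06), Apoa4, an apolipoprotein (1.55, adjusted p = 8.5e-09), and Aldh1b1, a mitochondrial aldehyde dehydrogenase (0.98, adjusted p = 1.1e-07). Uroc1, urocanase, which acts next after Hal, fell by 0.53 (adjusted p = 2.2e-04). G6pc, the catalytic subunit of glucose-6-phosphatase, named here because its value was large, had a log2 fold change of -1.05 that did not pass (adjusted p = 0.125), with 7.06 to 11.60 (median 8.74) on the MCD diet and 8.70 to 11.04 (median 10.24) on the control diet. Ass1, an enzyme of the urea cycle, averaged near the median of all genes here (between 2.00 and 5.48 on the MCD diet and between 3.10 and 5.57 on the control diet).

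**Figure D4:**
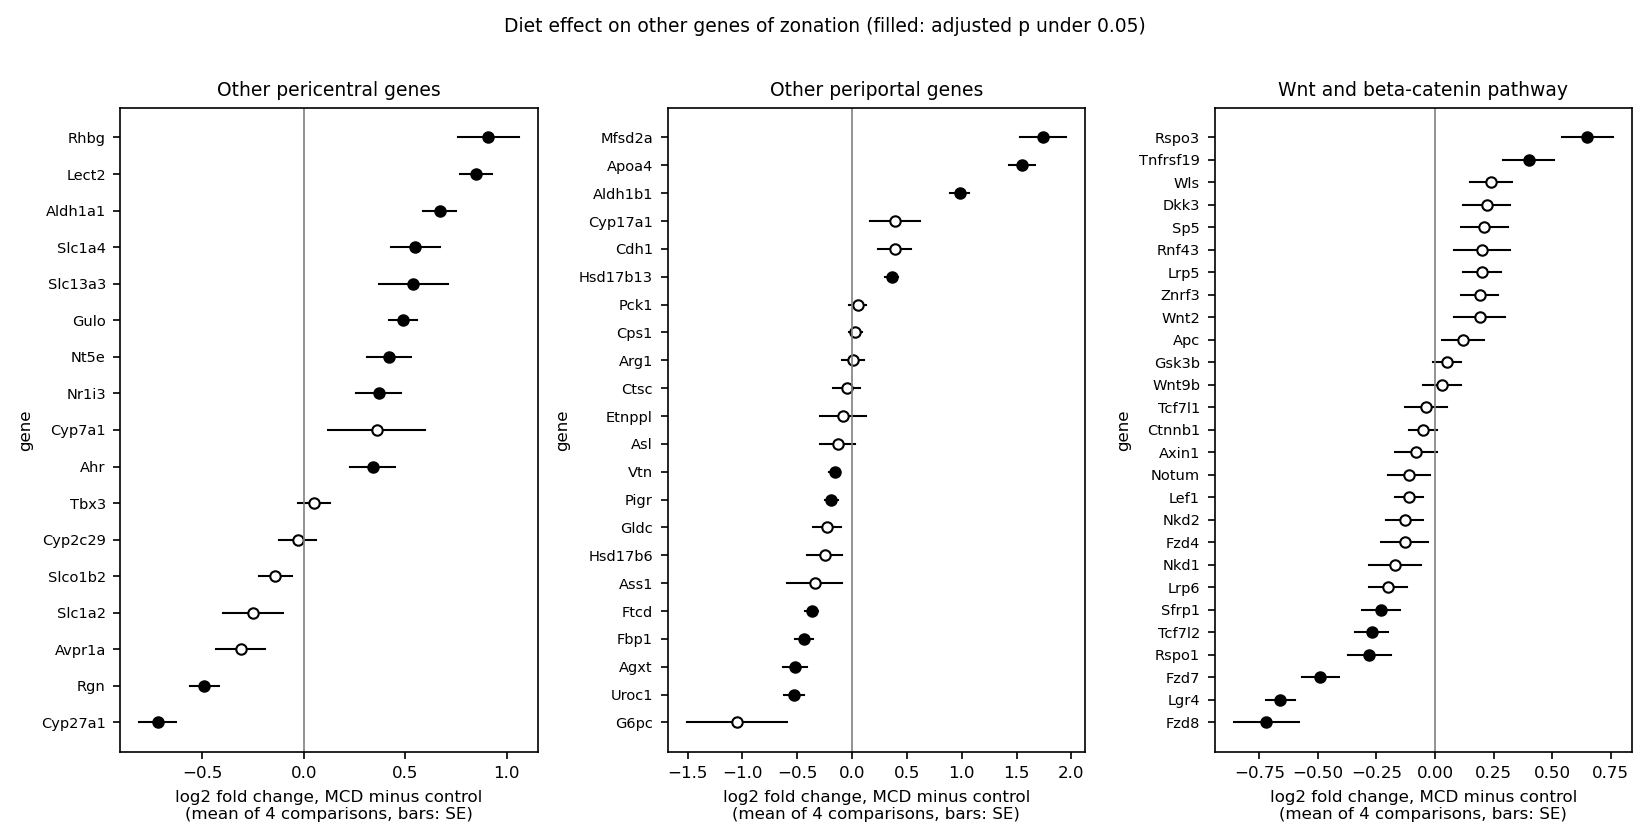
Log2 fold change (MCD minus control diet, mean of the 4 comparisons, horizontal axis, bars 1 SE) of other pericentral genes, other periportal genes and genes of the Wnt and beta-catenin pathway (rows), filled at an adjusted p under 0.05. Pericentral genes reach 0.91 (Rhbg), periportal genes 1.74 (Mfsd2a) and pathway genes 0.65 (Rspo3) at the top.

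The histidine, serine and threonine list had 15 of 18 genes measured, of which 1 rose (6.67%, beside 9.79% of all genes), 7 fell (46.7%, beside 9.39%) and 7 did not pass, with a median of -0.23. The enzymes that follow Hal in histidine breakdown were all lower on the MCD diet. Amdhd1, imidazolonepropionase, fell by 0.88 (adjusted p = 2.0e-08), with a median of 8.53 on the MCD diet and 9.43 on the control diet and no overlap of the arrays. Ftcd, which hands the last carbon of histidine to folate and was named after its values were seen, fell by 0.37 (adjusted p = 1.3e-04). Amt, of the glycine cleavage system, fell by 0.59 (adjusted p = 3.7e-06). Psat1, of serine synthesis, rose by 1.39 (adjusted p = 4.5e-08), at a mean level of 3.72, below the median of all genes (3.83).

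Of the Wnt and beta-catenin list 27 of 28 genes were measured, and 2 rose (7.41%, below the 9.79% of all genes), 6 fell (22.2%, beside 9.39%) and 19 did not pass, with a median of -0.05. Rspo3, an R-spondin ligand made near the central vein, rose by 0.65 (adjusted p = 1.6e-04). The frizzled receptor genes Fzd8 (-0.72, adjusted p = 5.8e-04) and Fzd7 (-0.49, adjusted p = 1.5e-04) and the R-spondin receptor gene Lgr4 (-0.66, adjusted p = 7.9e-08) fell. Without control-fed HepCAV1wt female replicate 3 the number higher was 4.

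Glutamine and ammonia handling had 17 of 20 genes measured, with 5 higher (29.4%, beside 9.79% of all genes), 1 lower (5.88%, beside 9.39%) and 11 not passed (median 0.00). Asns, asparagine synthetase, rose by 2.09 (adjusted p = 6.4e-09), Slc1a5, a glutamine transporter, by 0.85 (adjusted p = 2.9e-05) and Aldh18a1, which makes the precursor of proline and ornithine, by 0.76 (adjusted p = 3.3e-06). Slc1a5 and Aldh18a1 averaged 3.66 and 3.71, below the median of all genes (3.83). The aryl hydrocarbon receptor list had 9 of 10 genes measured, with 3 higher (33.3%), 1 lower (11.1%, near the share of all genes) and 5 not passed (median 0.09). Nqo1, a quinone reductase, rose by 1.36 (adjusted p = 2.1e-08), Cyp1a1 by 0.66 (adjusted p = 0.00153) and Ahr by 0.34 (adjusted p = 0.0343), and Aldh3a1 fell by 0.27 (adjusted p = 0.0015). The call of Ahr was lost without any 1 of 12 arrays (adjusted p between 0.0504 and 0.0721). Cyp1a1 and Aldh3a1 averaged below the median level of all genes. The nuclear factor list had 16 of 18 genes measured, with 2 higher (12.5%, near the share of all genes), 5 lower (31.2%) and 9 not passed (median -0.17). Onecut1 (-1.29, adjusted p = 5.4e-04), Nr3c1, the glucocorticoid receptor (-0.42, adjusted p = 6.1e-06), and Foxa1 (-0.42, adjusted p = 1.7e-04) fell, and Ppargc1a, a coactivator of gluconeogenic genes, rose by 0.51 (adjusted p = 2.1e-04).

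Markers of stellate cells and some markers of macrophages moved with the diet, and their part in the zonation results was not tested. Of all genes 9.79% were called higher and 9.39% lower. Of 8 hepatic stellate cell markers 8 rose, and their summed linear level ran between 2080 and 3130 on the MCD diet and between 1050 and 1950 on the control diet. Dcn (1.00, adjusted p = 6.2e-10) and Col1a1 (0.88, adjusted p = 2.4e-04) were the largest. Of 7 macrophage markers 4 rose (Gpnmb, Cd68, Marco and Trem2), with sums between 785 and 1590 on the MCD diet and between 615 and 1070 on the control diet, and Gpnmb changed most (3.21, adjusted p = 2.8e-05). Adgre1, Csf1r and Clec4f did not pass, and Clec4f had a median of 8.27 on the MCD diet and 8.42 on the control diet. Of 8 hepatocyte markers 1 rose (Apob, 0.16, adjusted p = 0.0429) and 0 fell, with sums between 56100 and 60800 on the MCD diet and between 54700 and 58700 on the control diet. The call of Apob was lost without any 1 of 18 arrays, and 1 marker was called lower without MCD-fed HepCAV1ko female replicate 3 or MCD-fed HepCAV1wt male replicate 3. Sinusoidal endothelium had 2 of 8, cholangiocytes 1 of 6 and lymphocytes 1 of 6 markers higher (25.0%, 16.7% and 16.7%, beside 9.79% of all genes), and 0 lower in each, which at these list sizes is 1 or 2 genes and is not read as a change of those cells.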

How the data were processed

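Total RNA of whole liver was labelled and hybridised to Affymetrix mouse gene arrays. The authors deposited log2 values made with RMA, per their processing notes. RMA subtracts background, brings the arrays to a common distribution and summarises the probes of a gene. Its version was not stated in these sources. The table held 25428 features, of which 24705 had a symbol in the platform annotation and 723 stay unnamed. For the 1 symbol with several features the brighter was kept, so that 24704 genes were tested.

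From these values limma 3.58.1 (R 4.3.3) fitted 1 mean for each of the 8 groups over 24 arrays (16 residual degrees of freedom), with contrasts, eBayes and Benjamini-Hochberg adjustment over all genes at 0.05. The fit was tested on simulated data. Whether each array is a separate mouse is not stated in the labels. The p-values therefore cover only the variation among arrays, and 3 arrays a group limit the precision. Markers and gene lists were chosen with earlier results of these data known. Each marker with an annotated row is named. Up to 4 genes of a list are named, those with the largest averaged diet change among those that passed, and the 2 genes most correlated with each marker. Alternatives were the scaling, the filter, the variance model, array weights, the samples in the fit, the replicate number as a block, the methods' t-test and leaving out each array. Promoters came from RefSeq. The same-numbered arrays of 28 pairs of groups correlated between -0.14 and 0.25 after removal of group means. Different-numbered arrays were not compared, so this cannot decide whether the numbers mark a shared batch.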

Additional observations from a re-analysis of the deposited data

Results flagged for a closer look

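Of 157 genes in the lists around the zonation markers, cell type lists included, 4 (2.55%, beside 0.534% of all genes) had a diet effect that differed between the sexes, tested as the diet effect in males minus that in females averaged over genotype (limma adjusted over all genes). The lists were chosen with earlier results of these data known, so this share is a description. Cyp17a1, a periportal steroid hydroxylase, differed by 3.07 (adjusted p = 7.3e-04), with 1.11 in HepCAV1ko males, 2.73 in HepCAV1wt males, -1.03 in HepCAV1ko females and -1.26 in HepCAV1wt females. Nt5e, the pericentral ectonucleotidase CD73, differed by 1.78 (adjusted p = 5.9e-05), with 1.33 and 1.30 in HepCAV1ko and HepCAV1wt males and -0.89 and -0.04 in HepCAV1ko and HepCAV1wt females. Nqo1 differed by 1.17 (adjusted p = 0.0147). Aldh1b1 differed by 0.88 (adjusted p = 0.0288), a call lost without any of 12 single arrays (adjusted p between 0.0528 and 0.0675) and, like that of Nqo1, without moderated variances (adjusted p of 0.0769 for Aldh1b1 and 0.0629 for Nqo1).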

How the results depend on the processing

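The averaged diet calls of Glul, Axin2, Oat, Cyp1a2 and Hal kept their direction and their side of the threshold under each of the 7 alternatives run and without each of the 24 arrays, with 5 to 6 markers called. The single comparisons moved. In HepCAV1wt males, 1 marker called became 0 without moderated variances, with only the arrays compared and by the methods' t-test, and 2 with array weights, with genes above the median, with quantile normalization and with a variance trend, and 0 to 2 without single arrays. In HepCAV1wt females 1 became 2 with genes above the median and with a trend, 0 by the t-test, and 0 to 2 without single arrays. In HepCAV1ko males 2 became 0 without moderated variances and by the t-test, 1 with array weights, and 0 to 1 without single arrays. In HepCAV1ko females 0 became 1 with array weights and with genes above the median, and 0 to 1 without single arrays. In the averaged sex comparison 0 became 1 (Cyp1a2) with array weights, with genes above the median and with a trend, and 0 to 1 without single arrays, as in control-fed HepCAV1ko mice. The replicate number as a block gave 2 markers called in HepCAV1wt males in place of 1 (Glul passing) and changed no other count of zonation markers. The labels do not say what the replicate number stands for, so whether the block pairs animals is not known. Whether the numbers mark a batch was not tested. At its unadjusted threshold the methods' t-test called 2 markers in HepCAV1ko males, 2 in HepCAV1wt males, 1 in HepCAV1ko females and 1 in HepCAV1wt females between diets. In that order it called 3790, 3191, 2410 and 3298 of all 24704 genes at the same threshold. The 1 of 8 markers in each group of females was near that share of all genes. Without single arrays the sign changed for 5 of the uncalled values checked 1 by 1. The diet effect on Lgr5 in HepCAV1wt males (-0.15) then ran between -0.54 and 0.36. The averaged genotype difference of Lgr5 (0.07) ran between -0.03 and 0.20. In HepCAV1ko mice the diet effect on Cyp2f2 ran between -0.27 and 0.02 in males (-0.12 with all arrays). In females it ran between -0.05 and 0.01 (-0.01 with all arrays). The diet effect on Axin2 in HepCAV1ko females (0.05) ran between -0.07 and 0.18. Of the markers' genotype and sex values not checked 1 by 1, 11 of 724 changed sign under other alternatives and 95 of 966 without single arrays, and 0 passed. The counts over all genes moved too. Between diets, HepCAV1wt males had 1079 and, with only the arrays compared, 679, HepCAV1ko females 406 and 144 (733 with array weights), and HepCAV1wt females 1216 and 665, while the adjusted t-test gave 1 gene in each of these and in HepCAV1ko males (1640 by limma). Between sexes, control-fed HepCAV1ko mice had 366, and 176 with only the arrays compared and 9 by the t-test, control-fed HepCAV1wt mice 314, 206 and 8, MCD-fed HepCAV1ko mice 50, with 94 under array weights, 23 without moderated variances and 1 by the t-test, and MCD-fed HepCAV1wt mice 53, with 81, 32 and 1 (27 with only the arrays compared). The diet effect differed between sexes for 132 genes and for 87 without moderated variances. Between genotypes, control-fed males had 1, and 6 with array weights, 2 with the replicate block and 0 by the t-test, and the average had 1 and 0 without moderated variances. Of the list counts between diets, 4 Wnt genes were higher with array weights in place of 2. With genes above the median the histidine list had 0 higher, the aryl hydrocarbon receptor list 0 lower and the nuclear factor list 8 lower in place of 5. Hepatocyte markers had 1 lower in place of 0 with array weights, genes above the median, a variance trend and the replicate block. The causes of these changes were not tested. Psat1, Slc1a5, Aldh18a1, Cyp1a1 and Aldh3a1 averaged below the median of all genes and have no value with that filter.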
